A study of Caenorhabditis elegans with 4 samples.

Results

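The vitellogenin genes vit-1 to vit-6 encode the yolk proteins of Caenorhabditis elegans. They were set against the chromatin sites of MRG-1 in adult worms. The genes were chosen by symbol, and all 6 were found among the 46890 genes, 19971 of them protein-coding, that the RefSeq gene table (assembly WBcel235) places on chromosomes I to V and X. Each gene is given here with its sequence name. There were 5 on X: vit-1 (K09F5.2), vit-2 (C42D8.2), vit-3 (F59D8.1), vit-4 (F59D8.2) and vit-5 (C04F6.1). The sixth, vit-6 (K07H8.6), is on chromosome IV. Their spans in the table are alike in length, between 5.13 kb for vit-5 and 5.30 kb for vit-6.

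Yolk proteins are made in the adult hermaphrodite intestine, secreted into the body cavity and taken up by growing oocytes through the receptor RME-2. The vitellogenin genes are among the most strongly transcribed genes of the adult intestine and are not genes of the germline. VIT-1 to VIT-5 are closely related large yolk proteins, and VIT-6 is the precursor of the smaller pair. MRG-1, a chromodomain protein related to MRG15, binds chromatin and is best known for its part in germ cell development.

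The series holds 2 MRG-1 ChIP samples and 2 input samples, all from hermaphrodites of the strain fem-2(b245), genotype fem-2(b245)III, kept at 20 °C. The allele affects a sex-determination gene on III needed for sperm production, and no other strain was included, so all samples carry it. The labels call the stage young adult with germline present, although the animals were grown until gravid. Chromatin came from whole animals, so intestine, germline and the other tissues were pooled. MRG-1 was precipitated with an affinity-purified rabbit polyclonal antibody. There are 2769 peaks (16.7 Mb) for replicate 1, 3895 peaks (13.1 Mb) for replicate 2 and 12147 peaks (14.8 Mb) in a list for the whole series. Read counts are not part of these lists, so the depth behind a peak is unknown, and no values of the input samples were used. Separate cultures are not stated for the replicates, and their spread may be technical.

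None of the 6 vitellogenin genes lay under an MRG-1 peak. Each list gave 0 of 6, those of replicate 1 and replicate 2 and the series-wide one, with an overlap of 1 bp counted as under a peak. Each of the 6 spans was covered to 0% in all 3 lists. Among all genes of the table, 16.0% were under a peak of replicate 1, 14.4% under one of replicate 2 and 16.8% under one of the series-wide list. That table holds many short non-coding genes, and among protein-coding genes the shares were 30.2%, 28.1% and 32.7%. The background differs between the chromosomes. On X, 8.61% of the 2730 protein-coding genes were under a peak of replicate 1, 1.25% under one of replicate 2 and 8.94% under one of the series-wide list. On IV, the shares of the 3281 protein-coding genes were 32.7%, 30.4% and 35.0%.

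For the 5 X-linked members, 0 of 5 is close to that background, since nearly all X genes lay outside peaks, so it is not a result about the yolk genes. For vit-6 the background is higher, but it is 1 gene, and most genes of IV also had no peak. The same pattern, outside peaks in all 3 lists, was shared by 2463 X genes (90.2%), by 2040 genes of IV (62.2%) and by 12886 protein-coding genes in all (64.5%). The shares among genes of like length were also computed. Among the protein-coding genes of 4 to 6 kb on X, 12.4% met a peak of replicate 1 and 0.258% one of replicate 2. Among those on IV the shares were 38.5% and 35.0%.

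No peak lay just beside the members either. The 1 kb on either side of each span, which holds the promoter whichever strand the gene is on, met no peak for any of the 6 genes in any of the 3 lists. Of the protein-coding genes on X, 10.6% had a peak of replicate 1 in such a window, 1.21% one of replicate 2 and 9.52% one of the series-wide list. On IV, the shares were 36.5%, 33.9% and 39.5%.

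**Figure D1:**
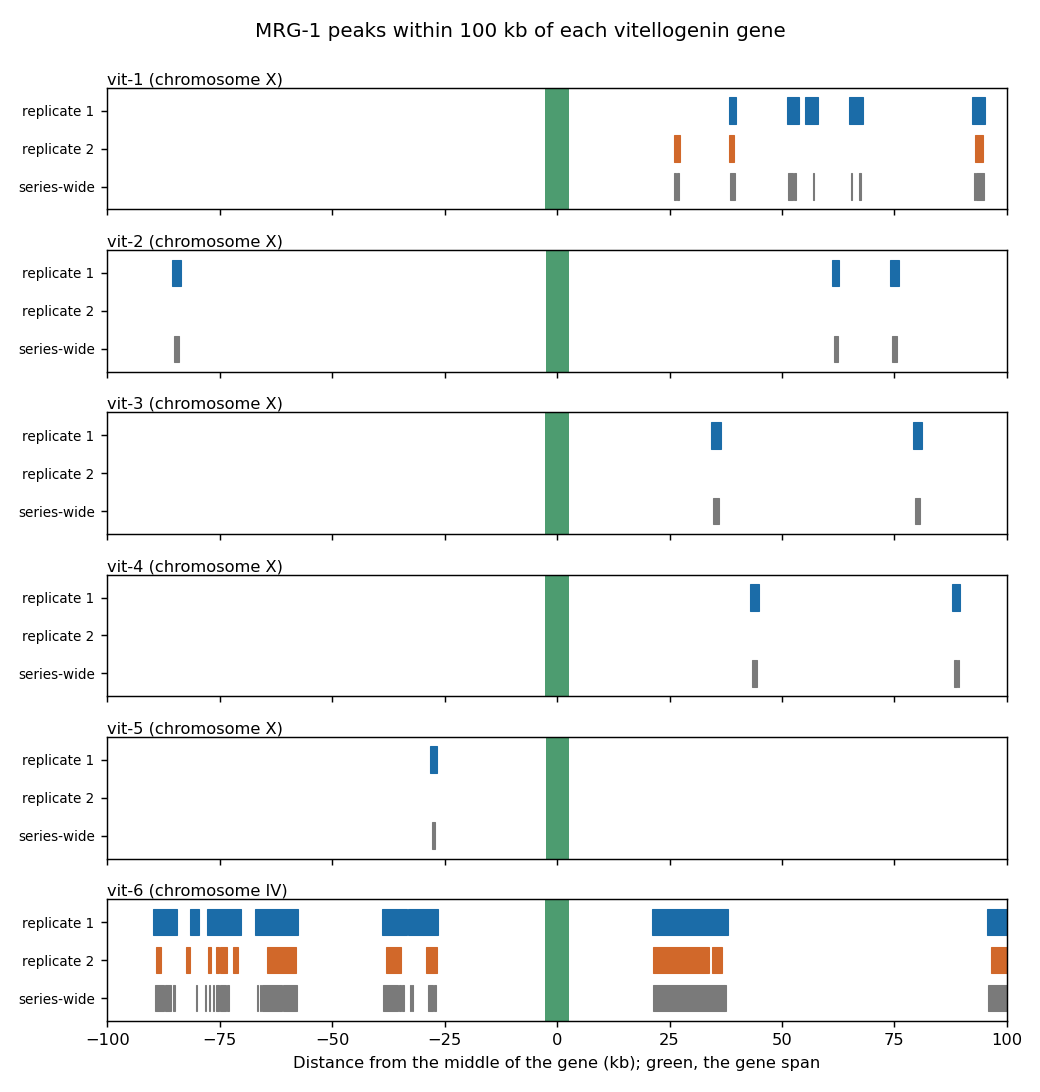
Peaks within 100 kb of the middle of each vitellogenin gene, with distance in kb on the horizontal axis, 1 panel for each gene and 1 row for each peak list (blue, replicate 1; orange, replicate 2; grey, series-wide). The green band is the gene span. None of the 6 bands meets a peak, peaks are few around the X-linked genes, and around vit-6 peaks stand on both sides.

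On X the nearest peaks were between 24.2 and 58.7 kb away in replicate 1, and in replicate 2 they were over 288 kb away for all members but vit-1. Distances run from the gene span to the nearest peak edge. The gene table and the peaks are on different builds, taken to differ by no more than about 200 bp here. In replicate 1, the median X gene lay 29.1 kb from a peak, and in replicate 2 it lay 248.9 kb away. Replicate 1 had 191 peaks on X, and replicate 2 had 37.

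vit-1 was the X-linked member with peaks of both replicates within 200 kb. Its nearest peak was 35.5 kb away in replicate 1, 23.4 kb away in replicate 2 and 23.4 kb away in the series-wide list. The mean over the replicates was 29.4 ± 8.59 kb (SD, n = 2), taken over peaks at different sites. For the other X-linked members the SD was much larger, from 187 kb for vit-5 to 298 kb for vit-3. By its distance vit-1 was in the middle of the X genes in replicate 1, where 55.5% of them were nearer to a peak. In replicate 2 only 8.90% of the X genes were nearer. The nearest peaks of both replicates fell in deg-1, which encodes a degenerin channel subunit of neurons. In replicate 1 it was at bases 7768689 to 7770254 and in replicate 2 at bases 7756540 to 7757819 (positions here and below on WormBase WS220). Replicate 2 also had a peak at the replicate 1 site. The stretch around vit-1 without a peak in either replicate was 186.5 kb long and held 25 protein-coding genes.

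vit-2 lay farther from peaks than most X genes. Its nearest peak was 58.7 kb away in replicate 1, 387.6 kb away in replicate 2 and 59.0 kb away in the series-wide list. Of the X genes, 70.8% were nearer to a peak in replicate 1 and 68.4% in replicate 2. The replicate 1 peak, at bases 5164832 to 5166321, was in mans-3. In replicate 2, the stretch without a peak around vit-2 ran to 1239 kb and 179 protein-coding genes, the fourth longest of the 36 on X.

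vit-3, vit-4 and vit-5 shared a single stretch without peaks, so they are not separate observations. vit-3 and vit-4 are next to each other, 3.39 kb apart in the gene table. In replicate 1 the shared stretch was 224.9 kb long and held 34 protein-coding genes. It ran from the peak at bases 3377877 to 3379290, in sorf-1, to the peak at bases 3604174 to 3606317, under C18B2.3 and C18B2.4. The protein SORF-1 acts in endosome maturation. In replicate 2 the stretch ran to 1076 kb and 160 genes, between a peak under gpd-2 and mai-1 and a peak in vha-12, which encodes a subunit of the proton pump V-ATPase.

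Of these 3 genes vit-5 was nearest to a peak. It lay 24.2 kb from one in replicate 1 and 288.5 kb from one in replicate 2. vit-3 lay 31.6 kb away in replicate 1 and 452.4 kb away in replicate 2. vit-4 lay 40.2 kb away in replicate 1 and 443.8 kb away in replicate 2. In replicate 1 the shares of X genes nearer to a peak were 45.0% for vit-5, 52.4% for vit-3 and 59.3% for vit-4, near the middle of the X genes. In replicate 2 they were 56.1% for vit-5, 73.7% for vit-3 and 73.2% for vit-4. The vit-3, vit-4 and vit-5 genes are near-identical copies in the textbook account. How reads that match more than 1 copy were treated is not given in the sources used here, so the lack of peaks on the copies themselves is less certain than that of their neighbours.

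The scores of the peaks that flanked the X-linked genes differed between the lists. The score is the authors' own value for each peak and was used only to rank peaks within a list. In replicate 1, the sorf-1 peak scored above 12.9% of the list, the mans-3 peak above 25.0% and the deg-1 peak above 26.2%. The peak at C18B2.3 and C18B2.4 scored above 36.3%. On the left of vit-2, the sek-3 peak scored above 19.7%. On the left of vit-1, the peak at vps-52 and apy-1 scored above only 2.56%. In replicate 2 the peak at gpd-2 and mai-1 scored above 51.2% of the list, and the nearest peak to vit-1, in deg-1, above 24.1%. The glit-1 peak, on the left of vit-2, scored above 27.7%, and the pdi-6 peak, on the left of vit-1, above 25.5%. Weaker peaks closed the long stretches on the right. The peak at R07E4.5 and R07E4.3, beyond vit-2, scored above 6.32%. The vha-12 peak, beyond vit-3, vit-4 and vit-5, scored 51.24, close to the lowest score of the list, 50.03. In the series-wide list the sorf-1 peak scored above 52.1%, the peak at C18B2.4 above 78.9% and the mans-3 peak above 79.6%, while the nearest peak to vit-1 scored above 3.07%.

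vit-6, the autosomal member, lay in a peak-free stretch with a high-scoring peak on 1 side. Its nearest peak was 18.4 kb away in replicate 1, 18.6 kb away in replicate 2 and 18.7 kb away in the series-wide list, with a mean of 18.5 ± 0.173 kb over the replicates (SD, n = 2). The replicates placed the edge of this peak at bases 8284816 and 8285060 of IV. The stretch around vit-6 measured 47.5 kb in replicate 1 and 48.1 kb in replicate 2. By length it ranked 101 of the 466 gaps between peaks on IV in replicate 1 and 96 of 709 in replicate 2. It held 8 protein-coding genes in each replicate, vit-6 among them. Among the genes of IV, 72.6% were nearer to a peak than vit-6 in replicate 1 and 72.2% in replicate 2. The median gene of IV lay 5.70 kb from a peak in replicate 1 and 5.47 kb from one in replicate 2.

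All 3 lists had peaks that bounded this stretch on both sides, though the series-wide list may draw on the same samples as the replicates. On the right, replicate 1 had a peak of 16916 bp at bases 8284816 to 8301731 of IV, which covered at least part of 8 protein-coding genes. They included nucl-1, which encodes nucleolin, daf-31, which encodes the catalytic subunit of an N-terminal acetyltransferase, tbce-1, which encodes a tubulin folding cofactor, and nprl-3, which encodes a subunit of the GATOR1 complex. Replicate 2 had a peak of 7369 bp there, at bases 8285060 to 8292428, with further peaks beyond it. Both carry the score 3100, which 554 peaks of replicate 1 and 272 peaks of replicate 2 share. They scored above 78.8% of the replicate 1 list and 92.1% of the replicate 2 list, and the series-wide peak there above 99.6% of its list. On the left, both replicates had a peak in nhr-66, which encodes a nuclear hormone receptor. It was 23.8 kb from vit-6 in replicate 1 and 24.2 kb from it in replicate 2. This peak scored above 42.8% of the replicate 1 list and 32.1% of the replicate 2 list.

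**Figure D2:**
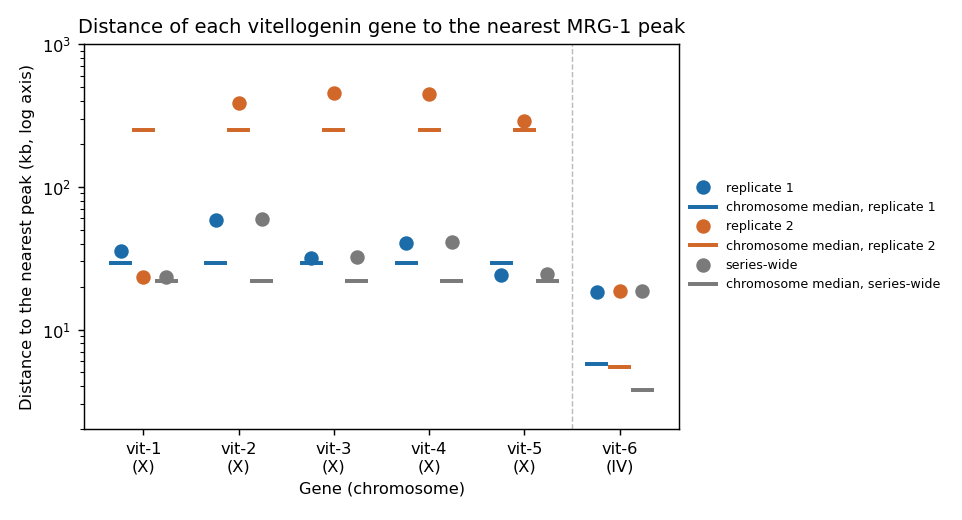
Distance in kb (log axis) from each gene span to the nearest peak of each list (points), with the median over all protein-coding genes of the same chromosome as short bars. Colours are those of the lists, and the dashed line separates the X-linked genes from vit-6. The points of vit-6 lie between 18.4 and 18.7 kb, above the medians of IV, while the replicate 1 points of the X-linked genes lie on both sides of the X median.

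The X-linked members were farther from peaks than the autosomal one in every list. The median distance of the 5 X-linked genes was 35.5 kb in replicate 1, against 18.4 kb for vit-6, and 387.6 kb in replicate 2, against 18.6 kb for vit-6. The differences were 17.2 kb in replicate 1 and 369 kb in replicate 2, so the direction held while the size depended on the replicate. All 5 X-linked genes were farther from a peak than vit-6 in both replicates. Set against their own chromosomes the order was another. In replicate 1, from 45.0% to 70.8% of the X genes were nearer to a peak than the X-linked members, and 72.6% of the genes of IV were nearer than vit-6. In replicate 2 the X-linked members ranged from 8.90% to 73.7%, and vit-6 stood at 72.2%. With 1 autosomal gene, and 3 of the X-linked genes in a single stretch, no test was run.

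Coverage in widening windows showed the same difference in surroundings. Within 10 kb on each side, 0% of the bases were under peaks at all 6 genes in all 3 lists. Within 50 kb on each side, the X-linked genes reached at most 2.98% in replicate 1 and 2.34% in replicate 2, both at vit-1, and vit-6 reached 27.6% in replicate 1 and 19.3% in replicate 2. Within 200 kb, the X-linked genes had 1.31% to 4.26% in replicate 1, and in replicate 2 vit-1 had 1.01% and the other X-linked genes 0%. At that width vit-6 had 35.0% in replicate 1 and 23.3% in replicate 2. For comparison, X from its start to its last peak had 2.61% under peaks of replicate 1 and 0.323% under those of replicate 2. IV, measured in the same way, had 17.8% and 13.7%. Within 20 kb, vit-6 was below this average of IV, with 3.63% in replicate 1 and 3.09% in replicate 2. In the windows of 50 and 200 kb it was above the average.

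**Figure D3:**
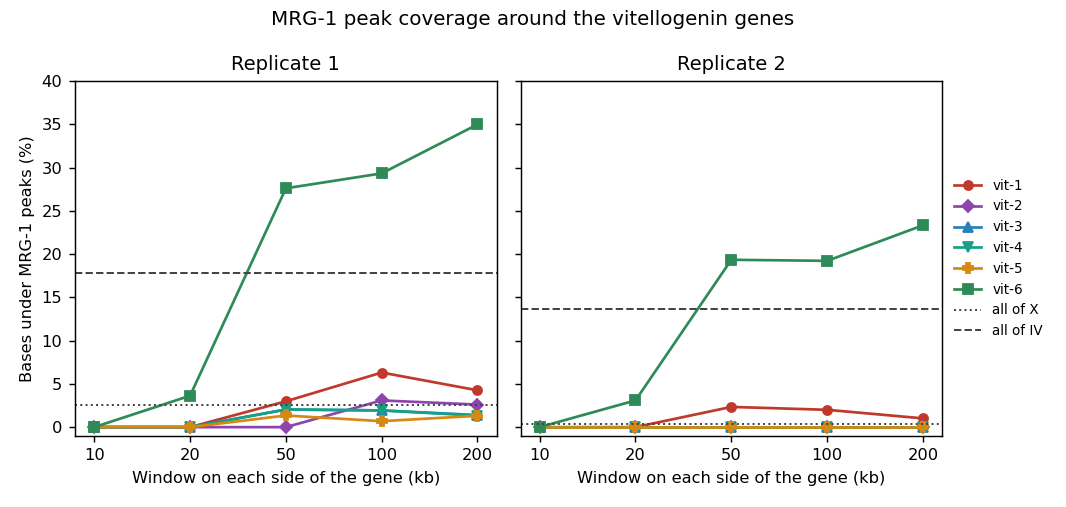
Percent of bases under peaks in windows of 10, 20, 50, 100 and 200 kb on each side of each gene, in replicate 1 (left) and replicate 2 (right). The window sizes are spaced evenly along the axis, and horizontal lines give the coverage of X (dotted) and IV (dashed), each up to its last peak. The line of vit-6 passes the coverage of IV by 50 kb in both replicates, and the X-linked genes stay at or below 6.31%.

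The immediate neighbours of the yolk genes had no peaks. The 3 nearest protein-coding genes on each side of each member made up 30 genes, the members left out, and 0 of the 30 were under a peak in any list. They shared the members' pattern over the 3 lists. So did 90.2% of all protein-coding genes of X, where most of the 30 lie, and 62.2% of those of IV. On X the count is thus near the background and is not a result about these neighbours. Beside vit-1 the neighbours included spp-14, which encodes a saposin-like protein, set-12 and the zinc finger gene ref-2. Beside vit-2 they included acn-1 and apl-1, the worm relative of the amyloid precursor gene. Beside vit-3 and vit-4 they included rgs-7, which encodes a regulator of G protein signalling, the glycogenin gene gyg-1 and the choline kinase gene ckc-1. Beside vit-5 were the chitinase gene cht-1 and unc-78, which encodes an actin-interacting protein. Beside vit-6 they were K07H8.7, K07H8.8, K07H8.5, K07H8.11, T09A12.1 and T09A12.8.

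Within 20 kb of a member, 2 of 76 genes were under a peak, with the same count in all 3 lists. Of all genes, 16.0% were under a peak of replicate 1, 14.4% of replicate 2 and 16.8% of the series-wide list. Of the 76, 62 are on X, where peaks are fewer. In each list the 2 genes were deg-1, near vit-1, and K07H8.9, near vit-6. Only part of deg-1 lies within 20 kb of vit-1, and its peaks lie beyond that. Within 20 kb of vit-1, 0% of the bases were under peaks in all 3 lists. deg-1 and K07H8.9 are protein-coding, and among the 36 protein-coding neighbours 1 of 28 on X and 1 of 8 on IV was under a peak. The shares of all protein-coding genes were 8.61% in replicate 1 and 1.25% in replicate 2 on X, and 32.7% and 30.4% on IV. Within 50 kb on X, 5 of 65 protein-coding neighbours were under a peak in replicate 1 and 1 of 65 in replicate 2, against 8.61% and 1.25% of all protein-coding genes of X. They were deg-1 and ZK154.4 near vit-1, C18B2.3 and C18B2.4 near vit-3 and vit-4, and sorf-1 near vit-5. On IV, 10 of 23 neighbours of vit-6 were under a peak in replicate 1 and 9 of 23 in replicate 2, against 32.7% and 30.4% of all protein-coding genes of IV. The counts within 50 kb are near these backgrounds on X and not far above them on IV. Those within 20 kb, at 1 gene on each chromosome, are too small to set apart from them.

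Genes that act on yolk in other steps differed in how often they met peaks. The 12 genes of yolk uptake, for receptor-mediated endocytosis and its membrane traffic, were under a peak in 11 cases for replicate 1, in 9 cases for replicate 2 and in 12 cases for the series-wide peaks. These are 91.7%, 75.0% and 100% of the list, against 30.2%, 28.1% and 32.7% of all protein-coding genes. The yolk receptor gene rme-2 was 100% covered in replicate 1 and 95.7% covered in replicate 2. rme-1, which encodes an EHD protein of endocytic recycling, was 46.2% covered in replicate 1 and 30.1% covered in replicate 2. rme-8, which encodes a DNAJ protein of endosomes, was 98.3% covered in replicate 1 and 63.4% covered in replicate 2. The clathrin heavy chain gene chc-1 and the small GTPase genes rab-5, rab-7, rab-10 and rab-11.1, chosen after their values were seen, were wholly covered (100%) in both replicates.

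The X-linked members of the uptake list differed between the replicates. On X are rme-6, which encodes a RAB-5 exchange factor, dyn-1, which encodes dynamin, and dpy-23, which encodes an AP2 adaptor subunit. All 3 were under a peak in replicate 1, covered to 24.3%, 50.8% and 26.5% in that order, and none of the 3 was in replicate 2, where their nearest peaks were 331.5, 276.3 and 75.8 kb away. Of all X protein-coding genes, 8.61% were under a peak in replicate 1 and 1.25% in replicate 2. Of the 9 autosomal members, 8 were under a peak in replicate 1 and 9 in replicate 2, against 33.6% and 32.3% of all autosomal protein-coding genes. The exception was rab-35, at 1.72 kb from a peak in replicate 1 and covered to 26.1% in replicate 2. Many genes of this list act in all cells and not only in oocytes.

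The 13 genes listed here as vitellogenin regulators, dsc-4 on IV among them, met peaks at a share near that of all protein-coding genes. The count was 4 of 13 (30.8%) in each of the 3 lists, against 30.2%, 28.1% and 32.7% of all protein-coding genes. Part of the list is X-linked. Of its 9 autosomal members, 4 (44.4%) were under a peak in each list. The shares of all autosomal protein-coding genes were 33.6%, 32.3% and 36.4%. The 4 were the same genes in each list: daf-2, the insulin receptor gene, its FOXO target gene daf-16, the zinc finger gene lin-29 and rict-1, which encodes the Rictor subunit of TORC2. They are long genes, of 46.3, 26.2, 17.7 and 18.6 kb, and the covered part of the span varied. rict-1 was 32.4% covered in replicate 1 and 26.5% covered in replicate 2, and daf-2 to 1.86% in replicate 1 and 2.21% in replicate 2. The 4 regulator genes on X were under no peak: the intestinal GATA factor gene elt-2, the PBX-type homeobox gene ceh-60, lin-14 and sgk-1. The homeobox gene unc-62 and the GATA factor gene elt-7, both on V, were under no peak either, at 40.9 and 11.2 kb in replicate 1. mab-3, which represses vitellogenin genes in males, lay 0.077 kb from a peak of replicate 1, which is within the uncertainty between the builds, and 3.45 kb from one of replicate 2.

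Genes with known use in the intestine were mostly outside peaks, on autosomes as well as on X. Of the 25 in the list, 3 were under a peak in replicate 1 (12.0%), 1 in replicate 2 (4.0%) and 2 among the series-wide peaks (8.0%). Of the 22 autosomal ones, 3 were under a peak in replicate 1 and 1 in replicate 2, that is 13.6% and 4.55%, against 33.6% and 32.3% of all autosomal protein-coding genes (36.4% for the series-wide list). Many of the 22 are on V, for which this pooled background is high. On V, 78.2% of the protein-coding genes were outside peaks in all 3 lists, against 64.5% of all protein-coding genes. Of the 22, 19 were outside peaks in all 3 lists. spp-1, which encodes a small saposin-like antimicrobial protein, was wholly covered (100%) in both replicates. erm-1, which encodes an ezrin-type membrane linker, was covered to 80.3% in replicate 1 and lay 0.032 kb from a peak of replicate 2, within the uncertainty between the builds. nhx-2, which encodes a sodium and proton exchanger, was covered to 5.14% in replicate 1 and was 0.266 kb from a peak in replicate 2. The esterase gene ges-1, a classical intestine gene, lay 34.7 kb from a peak in replicate 1 and 37.0 kb from one in replicate 2. The gut actin gene act-5 lay 7.97 kb away in replicate 1 and 11.6 kb away in replicate 2. Over the 25 genes the median distance was 11.2 kb in replicate 1 and 13.3 kb in replicate 2. Some genes outside peaks were much closer to one, such as end-3 (0.226 kb in replicate 1, 0.674 kb in replicate 2) and cpr-1 (0.9 and 1.13 kb). elt-2 and elt-7 are in this list as well as among the regulators.

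The germline and oocyte genes were the opposite case. Of 25, 23 were under a peak in replicate 1 (92.0%), 24 in replicate 2 (96.0%) and 25 among the series-wide peaks (100%). None of them is on X, and the shares of all autosomal protein-coding genes were 33.6%, 32.3% and 36.4%. gld-1, which encodes a translational repressor of the germline, and pgl-1, which encodes a P granule protein, were wholly covered (100%) in both replicates. glp-1, the germline Notch receptor gene, was 95.7% covered in replicate 1 and 62.8% covered in replicate 2. The helicase gene glh-1 was covered to 100% in replicate 1 and lay 11.2 kb from a peak in replicate 2. puf-5 and egg-1 were 0% covered in replicate 1 and 100% covered in replicate 2. The lists were drawn up with earlier results of these data known, so their counts describe these genes and no test was run.

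**Figure D4:**
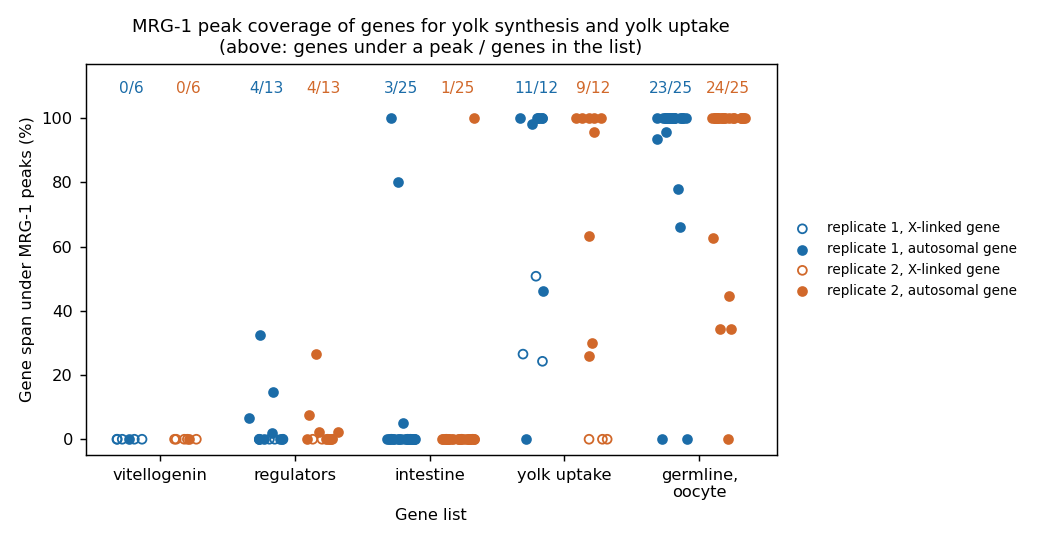
Percent of the gene span under peaks for each gene of 5 lists, in replicate 1 (blue) and replicate 2 (orange). Open circles are X-linked genes, filled circles autosomal ones, points are spread sideways for legibility, and the fraction over each column counts genes under a peak out of genes in the list. All 6 vitellogenin genes lie at 0% in both replicates, while 11 and 9 of the 12 uptake genes lie above 0%.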

How the data were processed

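MRG-1 was measured by ChIP-seq in 2 ChIP samples, with 2 input samples. Per the labels' protocols, ground adults were fixed with 1% formaldehyde for 10 minutes. The submitters' processing notes name BWA and the build ce10 for alignment. Peaks came from MACS (replicates) and MACS v2 (series-wide) and lie on WormBase WS220, per the file headers and source column. Thresholds, use of the input and pooling are not stated. The authors deposited a score for each peak without defining it. Its lowest value was 50.04 for replicate 1, 50.03 for replicate 2 and 1.30 for the series-wide peaks, so weaker sites are not listed, and the lists from the 2 caller versions are not on 1 scale.

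Gene spans came from the RefSeq table on WBcel235, which lacks strand. They were set on WS220 peaks with a tolerance of 200 bp between builds, taken as given and not checked against a WS220 annotation. None of the table's coordinates are printed. Overlap of at least 1 bp, percent of the span covered and distance to the nearest peak edge were computed with Python 3.11.15, numpy 2.4.6 and pandas 2.3.3, and the code was checked on simulated peaks. Peak lists give no counts, and the replicates form 1 group, so no test was run. Planned windows upstream of genes were replaced by windows on both sides, since strand was lacking.

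The members and lists were chosen with earlier results of these data known. The named genes are the 6 members, a part of the 3 nearest genes on each side, neighbours within 20 kb under a peak, and list members. Of the list members, all were named where a category held 6 or fewer, and otherwise the first 4 of the list. Other genes named were chosen after their values were seen. Alternatives were spans widened or narrowed by 200 bp, the top 50% of peaks by score, other minimum overlaps and windows, autosomal members only, and each replicate left out.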

Additional observations from a re-analysis of the deposited data

How the results depend on the processing

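The count of 0 vitellogenin genes under a peak, their coverage of 0% and the count of 0 in the windows beside them did not change under any alternative run for them: spans or windows widened by 200 bp, the top 50% of peaks, each replicate left out and, for the first, narrowed spans, larger minimum overlaps and the series-wide list. The median distance of the 6 genes to a peak of either replicate was 27.9 kb. It ranged from 33.6 to 338 kb when a replicate was left out and was 337 kb for the top 50% of peaks. The difference between X-linked genes and vit-6 kept its direction throughout. It was 13.3 kb for peaks of either replicate, 17.2 to 369 kb with a replicate left out and 368 kb for the top 50% of peaks. These settings only remove peaks, so distances can only grow. Neighbours under peaks numbered 2 within 20 kb, 1 for the top 50% of peaks, 0 within 10 kb and 19 within 50 kb. Of the regulators, 4 were under a peak of either replicate, and 5 with spans widened by 200 bp. The count was 2 for the top 50% of peaks and 0 with at least 50% of the span covered. Intestine genes under a peak numbered 3, and from 1 to 3 with a replicate left out. No paired analysis was possible because no result rests on a test and the inputs, which share replicate numbers with the ChIP samples, were not analysed here. Depth is unknown, so sites too weak to be called cannot be told from sites without MRG-1.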
